A study of Mus musculus with 3 samples.

Results

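Among single-cell barcodes of mouse bladder urothelium, 5144 of 25784 (19.95%) carried more than 20% of their UMIs (counted RNA molecules) in mitochondrial genes while showing urothelial identity. They were chosen by 3 measured values: at least 500 genes detected, more than 20% of UMIs in the 13 genes named mt-, and a summed level of Upk1a, Upk1b, Upk2 and Upk3a of at least 0.2% of the UMIs left after removing mt- genes. They are called high-mt barcodes here. Of these, 1369 came from the Lpar6 knockout library, 1644 from the Cab39l knockout library and 2131 from the wild type library, and together they held 8.20% of all UMIs. They were set against 5045, 5348 and 2272 low-mt barcodes of the same 3 libraries, which met the same gene and uroplakin limits and had at most 10% mt- UMIs. Because the mitochondrial share and the uroplakins chose the barcodes, both are described below without a test.

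The urothelium is the lining of the bladder, with basal cells on its basement membrane, intermediate cells above them and umbrella cells facing the urine. Uroplakins are membrane proteins of its upper layers that build rigid plaques on the umbrella cell surface. Mitochondria carry a small genome of their own, and its mRNAs are made and translated inside the organelle, while most subunits of the respiratory chain are coded in the nucleus, translated in the cytosol and imported. In droplet sequencing a high mitochondrial share is commonly used as a mark of a cell whose membrane has opened and whose cytosolic mRNA has been lost, although cells rich in mitochondria can also reach a high share. Such barcodes are usually discarded, so their nuclear-coded RNA is seldom described.

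Each of the 3 groups was 1 library made from a single-cell suspension pooled from 15 mice: Lpar6 knockout, Cab39l knockout and wild type. Lpar6 codes for a receptor of lysophosphatidic acid and Cab39l for an adaptor (MO25 beta) of the kinase LKB1. Strain, sex, age and the deleted part of each gene are not given in the labels, nor is any Cre driver or treatment. The bladders were filled with trypsin, the suspension was strained and red blood cells were removed on a Ficoll gradient, so cells had passed a digestion before capture. With 1 library per genotype, genotype and library cannot be told apart.

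The libraries held 139250807, 175075246 and 101977647 UMIs. Summed over high-mt barcodes and without mt- genes, the UMIs numbered 4682346 (Lpar6 knockout), 6144531 (Cab39l knockout) and 11670007 (wild type), against 113725043, 137270822 and 50473369 in the low-mt sums. Lpar6, the targeted gene, had 0 UMIs in the high-mt barcodes of its knockout and 327 in those of wild type, which is at least 43.7-fold lower against a floor of 3 UMIs over the sum. Cab39l still had 486 UMIs (79.1 CPM, counts per 1000000 non-mt UMIs) in the high-mt barcodes of its knockout, against 1990 UMIs (171 CPM) in wild type, a 2.16-fold difference. Since the deleted part is not stated, a tag at the 3′ end need not lie within it. Between 16 and 19 barcode sequences were shared by each pair of libraries, and among the high-mt barcodes 1 or 2 were. The wild type library also held neutrophil and erythroid transcripts at levels not seen in the knockouts, given below beside the results they touch.

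Of all urothelial barcodes, 19.2% in the Lpar6 knockout (exact binomial 95% interval 18.3 to 20.1%), 20.5% in the Cab39l knockout (19.6 to 21.4%) and 36.4% in wild type (35.2 to 37.7%) were high-mt. These intervals cover counting error only, and barcodes of 1 library are not replicates, so no test was made. The gap between the libraries depended on the gene minimum. At 200 genes the shares were 22.5, 23.9 and 32.2%, and at 1000 genes they were 15.6, 15.9 and 37.2%, in the same order of libraries. The uroplakin limit removed few barcodes: 12, 10 and 91 barcodes with over 20% mt- UMIs and 500 genes fell below it.

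**Figure D1:**
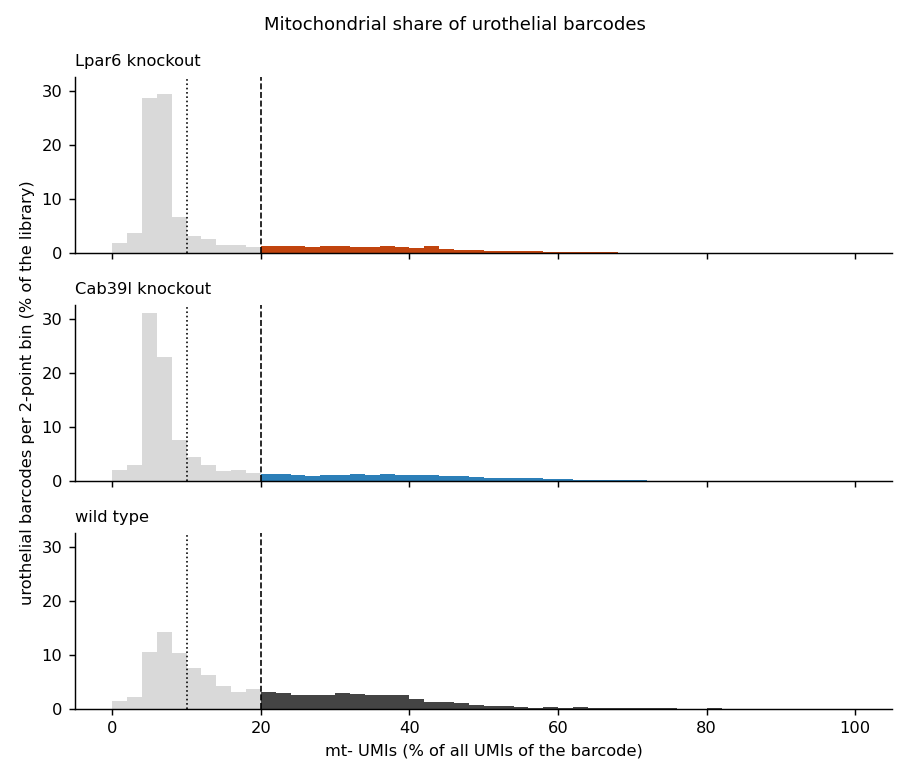
Share of urothelial barcodes (% of the library, y axis) in 2-point bins of the mt- share of their UMIs (%, x axis), in the Lpar6 knockout, Cab39l knockout and wild type libraries. Coloured bars mark barcodes above 20% (dashed line), which make up 19.2, 20.5 and 36.4% of the urothelial barcodes, and the dotted line marks the 10% limit of the low-mt barcodes.

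In each library the fullest 2-point bin lay between 4 and 8% mt- UMIs, and the bins around the 20% limit held similar numbers of barcodes. Barcodes with 20 to 22% mt- UMIs had a median of 6728, 8350 and 9446 non-mt UMIs in the Lpar6 knockout, Cab39l knockout and wild type, against 7931, 9138 and 10331 for those with 18 to 20%. At the gene limit, barcodes above 20% mt- UMIs with 500 to under 550 genes had a median of 885, 940 and 781 non-mt UMIs, against 806, 828 and 730 for those with 450 to under 500 genes. Around the uroplakin limit there were 1, 3 and 26 barcodes just inside (0.2 to 0.22%) and 1, 5 and 27 just outside (0.18 to 0.2%).

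High-mt barcodes held far fewer non-mitochondrial UMIs than low-mt barcodes, and their median of mitochondrial UMIs was moderately higher in each library. The median was 2829, 2825 and 4757 non-mt UMIs per high-mt barcode in the Lpar6 knockout, Cab39l knockout and wild type, against 24767, 27756 and 21810 per low-mt barcode. Mitochondrial UMIs had medians of 1843, 2041 and 2709 per high-mt barcode, against 1615, 1765 and 1650 per low-mt barcode. From the bin of 5 to 10% mt- UMIs to the bin over 50%, the median of non-mt UMIs went down step by step in every library, through 25465, 10356, 5101, 2811 and 1221 in the Lpar6 knockout. Over the same bins the median of mt- UMIs in that library stayed between 1695 and 1874. In the bin over 50% it was 2343 in the Cab39l knockout and 3022 in wild type, against 1894 and 1941 in the bin of 5 to 10%. The mt- share itself is the ratio of these quantities, so their order over the bins is a description of the rule.

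The difference in UMIs was not shared by all classes of RNA. Malat1, a long non-coding RNA that stays in the nucleus in speckles, had medians of 196, 135 and 487 UMIs per high-mt barcode and 261, 217 and 413 per low-mt barcode, in the order Lpar6 knockout, Cab39l knockout and wild type. The mRNAs of cytosolic ribosomal proteins, summed, had medians of 434, 564 and 344 UMIs per high-mt barcode, against 8725, 9887 and 6359 per low-mt barcode. As a share of non-mt UMIs, Malat1 reached medians of 5.03, 3.92 and 10.1% in high-mt barcodes, against 1.14, 0.890 and 2.01% in low-mt barcodes. Ribosomal protein mRNA made up 18.7, 25.02 and 8.14% in high-mt barcodes, against 35.1, 35.6 and 29.6% in low-mt barcodes. When each barcode was thinned to 1100 non-mt UMIs, with 68 to 163 high-mt and 127 to 221 low-mt barcodes per library left out as shallower, the median number of genes was 681, 649 and 746 in high-mt and 557, 555 and 607 in low-mt barcodes. Without thinning it was 1501, 1386 and 2362 genes in high-mt and 4350, 4582 and 4596 in low-mt barcodes.

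**Figure D2:**
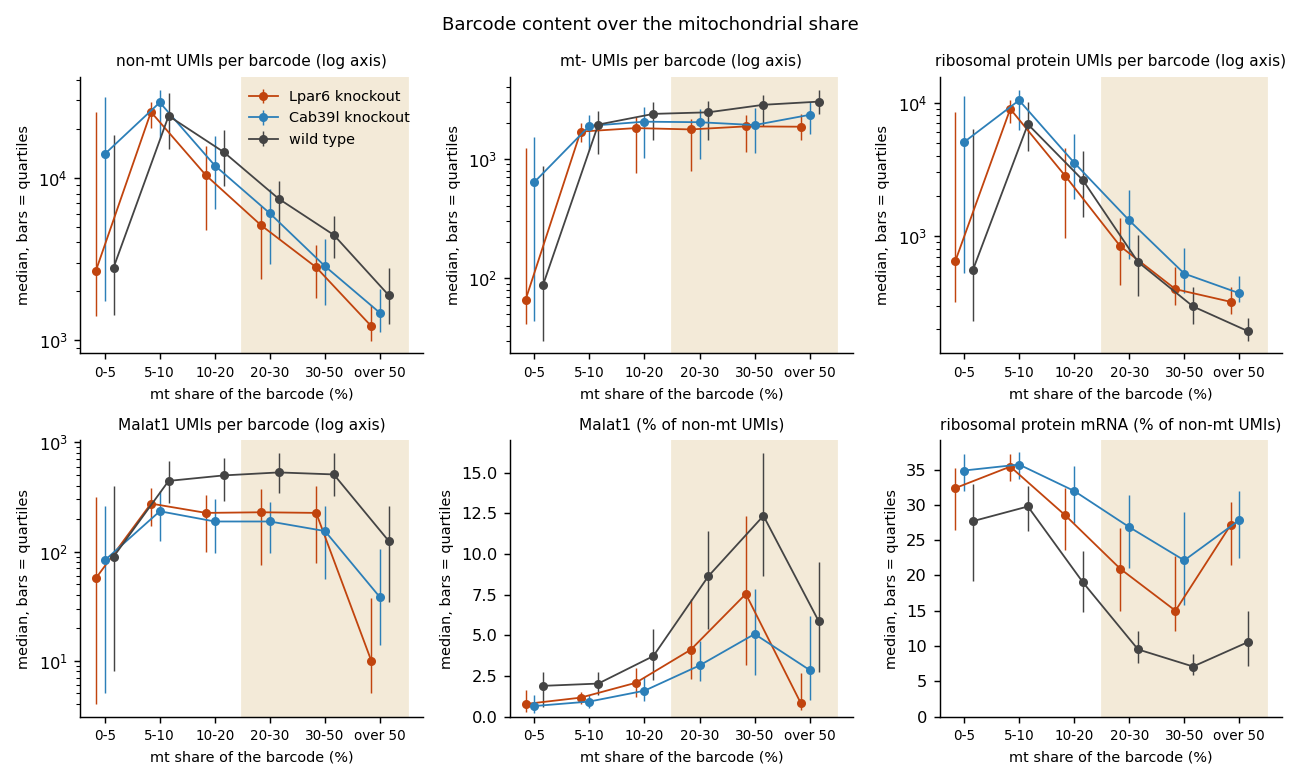
Medians (points) and quartiles (bars) per barcode over bins of the mt- share (%, x axis) in the 3 libraries: UMIs of all non-mt genes, of mt- genes, of cytosolic ribosomal protein genes and of Malat1 (log axes), and Malat1 and ribosomal protein mRNA as a percentage of non-mt UMIs (linear axes). The shaded bins are the high-mt barcodes. From 5% on, non-mt UMIs go down in each library, mt- UMIs stay level in the Lpar6 knockout and are higher over 50% than at 5 to 10% in the Cab39l knockout (medians 2343 and 1894) and in wild type (3022 and 1941), and the Malat1 share is highest at 30 to 50% (medians 7.54% in the Lpar6 knockout, 5.07% in the Cab39l knockout and 12.3% in wild type).

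High-mt barcodes were not uniform, and those over 50% mt- UMIs differed from the rest. In the bin of 30 to 50% the median Malat1 share was 7.54, 5.07 and 12.3%, and in the bin over 50% it was 0.816, 2.86 and 5.89%. Ribosomal protein mRNA had medians of 15.0, 22.1 and 7.10% in the bin of 30 to 50% and 27.1, 27.8 and 10.6% over 50%. In all, 266 of 1369 high-mt barcodes of the Lpar6 knockout (19.4%), 186 of 1644 of the Cab39l knockout (11.3%) and 95 of 2131 of wild type (4.46%) had a Malat1 share below the low-mt median of their own library. Over 50% mt- UMIs this was 56.1, 21.3 and 16.9% of the barcodes. The barcodes below that median had medians of 5, 6 and 25 Malat1 UMIs and 1192, 1375 and 1782 non-mt UMIs, against 244, 160 and 506 Malat1 UMIs and 3308, 3064 and 4836 non-mt UMIs in the others. Within 0.75 to 1.25 times the dividing value lay 23 of 266, 45 of 186 and 37 of 95 of the barcodes below it, and 33 of 1103, 43 of 1458 and 41 of 2036 of the others. Because this split used Malat1 itself, it describes the barcodes and tests nothing.

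To compare nuclear genes, UMIs were summed per library over the high-mt and over the low-mt barcodes, and the 2 sums of a library were paired in edgeR's quasi-likelihood test over 13348 genes (n = 3 libraries). Scaled to total non-mt UMIs, 8802 genes were higher (65.9%) and 1408 lower (10.5%) at a Benjamini-Hochberg adjusted p under 0.05. The median gene stood 0.82 (log2) higher, and the cause of this shift was not tested. With TMM scaling, which centres on the bulk of genes, 4416 were higher (33.1%) and 4149 lower (31.1%), and the median was 0.05. A gene is therefore said to have risen or fallen only where both scalings called it in that direction, which holds for 4416 genes up (33.1%) and 1408 down (10.5%). This rule is stricter for falls: all 4416 TMM rises count, but only 1408 of the 4149 TMM falls. A count of 0 falls therefore does not mean that TMM called none. The log2 values below are on the scale of total non-mt UMIs, and list medians are also given relative to the median gene. Libraries here differ in genotype, so the test asks whether the difference within libraries is larger than its spread over them, and it does not know of differences between mice within a pool.

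RNAs that stay in the nucleus stood highest. The list of nuclear-retained and ribosomal RNA-like transcripts had 11 measured members of 13 named, and all 11 rose, against 33.1% of all genes. Their median log2 was 2.57, which is 1.74 above the median gene. Malat1 had 66798, 47422 and 99074 CPM in the high-mt sums of the Lpar6 knockout, Cab39l knockout and wild type, against 11670, 9029 and 19606 CPM in the low-mt sums. All 3 high-mt values lay above all 3 low-mt values (log2 2.42 ± 0.57 SE, adjusted p = 0.00272). Its call was lost without the Lpar6 knockout library and without the Cab39l knockout library. Neat1, the RNA scaffold of paraspeckles, had 813, 754 and 1371 CPM in high-mt and 112, 101 and 264 CPM in low-mt sums, again without overlap (log2 2.71 ± 0.18, adjusted p = 4.68e-07). Xist, which coats the inactive X chromosome, had 2901, 1426 and 3395 CPM in high-mt and 613, 367 and 635 CPM in low-mt sums (log2 2.21 ± 0.23). Tsix, its antisense partner, had 76.5, 24.6 and 78.0 CPM in high-mt and 9.97, 3.74 and 11.4 CPM in low-mt sums (log2 2.81 ± 0.10). Whether the counting kept the strands of this pair apart is not stated in any source at hand.

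Other members of this list varied more between libraries. Gm42418, a transcript annotated over a ribosomal RNA repeat, had 13362, 15382 and 32643 CPM in high-mt and 2000, 1781 and 9124 CPM in low-mt sums (log2 2.57 ± 0.44). Lars2, the mitochondrial leucyl-tRNA synthetase, had 450, 540 and 854 CPM in high-mt and 45.1, 37.7 and 196 CPM in low-mt sums (log2 3.10 ± 0.29, adjusted p = 3.59e-06), and it is also a member of the list of mitochondrial DNA expression genes. The maternally expressed Meg3 had the largest called rise among genes of at least 20 CPM (log2 4.20 ± 0.47), with 84.8, 7.16 and 5.91 CPM in high-mt and 2.57, 1.46 and 0.0792 CPM in low-mt sums. It came from few barcodes: 29 of 1369, 2 of 1644 and 13 of 2131 high-mt barcodes held a Meg3 UMI, and in the Lpar6 knockout and wild type 10 barcodes held 92.7 and 95.7% of its UMIs. Against low-mt barcodes of matching depth the Meg3 value was -0.61, so its direction depends on which low-mt barcodes it is set against.

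**Figure D3:**
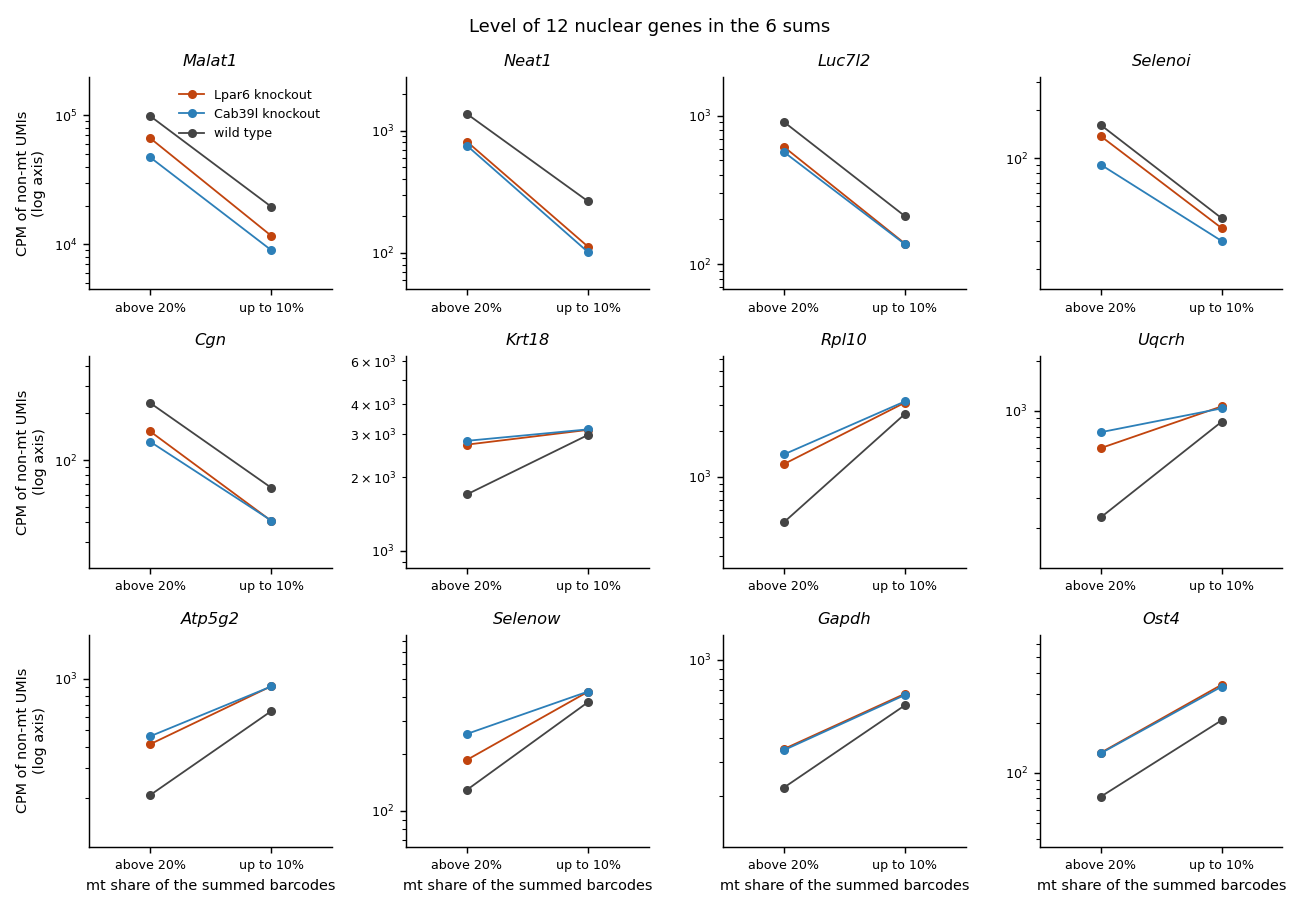
Levels (CPM of non-mt UMIs, log axes) of 12 nuclear genes in the high-mt sum (above 20% mt- UMIs, left) and low-mt sum (up to 10%, right) of each library, joined by lines. Malat1, Neat1, Luc7l2, Selenoi and Cgn are higher in high-mt sums in all 3 libraries, while Rpl10, Uqcrh, Atp5g2, Selenow, Gapdh and Ost4 are lower, and Krt18 did not pass the test.

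Messenger RNAs of splicing factors and chromatin regulators were also mostly higher. Of 33 genes for splicing and nuclear RNA binding, 22 rose and 1 fell (median 0.47 above the median gene), and of 26 chromatin regulators, 19 rose and 0 fell (0.52 above). The shares over all genes were 33.1% up and 10.5% down. Luc7l2, a splicing factor of the U1 particle, had 617, 569 and 907 CPM in high-mt and 138, 136 and 210 CPM in low-mt sums (log2 2.11 ± 0.15, adjusted p = 6.07e-07). Son, a speckle protein, had 627, 516 and 890 CPM in high-mt and 183, 181 and 269 CPM in low-mt sums (log2 1.67 ± 0.15). The histone methyltransferase gene Kmt2d had 43.8, 36.8 and 84.8 CPM in high-mt and 11.5, 10.99 and 20.2 CPM in low-mt sums (log2 1.92 ± 0.10). The exception was U2af1, the small subunit of the factor that binds the 3′ splice site, which fell, with 78.6, 79.4 and 71.6 CPM in high-mt and 124, 128 and 102 CPM in low-mt sums (log2 -0.62 ± 0.11). Against the median gene for transcripts of the same length, the chromatin list stood at -0.06 and the splicing list at 0.38.

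Genes of the cytosolic ribosome moved the other way. Of 82 measured ribosomal protein genes, 0 rose and 76 fell, against 10.5% of all genes, with a median log2 of -1.11 (1.93 below the median gene). Against genes of the same transcript length the list stood at -0.87. Rpl10, a late-joining protein of the large subunit, had 1213, 1406 and 499 CPM in high-mt and 3102, 3161 and 2611 CPM in low-mt sums (log2 -1.63 ± 0.29, adjusted p = 0.000426). The most abundant member, Rpl13, had 6218, 6572 and 3852 CPM in high-mt and 9786, 9361 and 9258 CPM in low-mt sums, but missed the threshold on the scale of total UMIs (log2 -0.81 ± 0.35, adjusted p = 0.0526). It passed without the wild type library. Translation factors followed in part, with 16 of 36 lower and 1 higher. Btf3, part of the nascent polypeptide complex, fell (log2 -1.34 ± 0.23), while Eif4g1, the scaffold of cap binding, rose, with 243, 217 and 318 CPM in high-mt and 98.9, 90.0 and 148 CPM in low-mt sums (log2 1.22 ± 0.12). Ribosomal protein genes have many processed copies in the genome, and UMIs from near-identical copies cannot be assigned with certainty.

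Although the barcodes were chosen for a high share of mitochondrial transcripts, nuclear mRNAs for mitochondrial proteins were mostly lower. The shares over all genes were 33.1% up and 10.5% down. Of the nuclear subunits, 29 of 37 fell for complex I, 10 of 14 for complexes II and III, 9 of 12 for complex IV and 12 of 14 for the ATP synthase, and 0 rose in each. Their medians were 1.47, 1.34, 1.61 and 1.57 below the median gene. Against genes of the same transcript length they stood at -0.41, -0.46, -0.44 and -0.50. Uqcrh, the hinge protein of complex III, had 598, 745 and 230 CPM in high-mt and 1065, 1035 and 863 CPM in low-mt sums (log2 -1.06 ± 0.26, adjusted p = 0.00355). Atp5g2, a gene for the c-ring of the ATP synthase, had 415, 462 and 209 CPM in high-mt and 907, 904 and 648 CPM in low-mt sums (log2 -1.24 ± 0.19). Cox4i1, the most abundant complex IV member, did not pass (log2 -0.41 ± 0.27, adjusted p = 0.183). Of the proteins of the mitochondrial ribosome, 55 of 78 fell and 0 rose, with the largest fall in Mrpl30 (log2 -1.17 ± 0.17). That list stood at -1.39 against the median gene and at -0.56 against genes of the same transcript length.

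The machinery that maintains and reads mitochondrial DNA did not follow the respiratory chain. Of 22 such genes, 9 rose and 3 fell, against 33.1% up and 10.5% down over all genes. The list median was 0.17 above the median gene. Lrpprc, which stabilises mitochondrial mRNAs, rose, with 25.6, 24.6 and 38.8 CPM in high-mt and 9.87, 9.57 and 16.05 CPM in low-mt sums (log2 1.33 ± 0.10), while its partner Slirp fell, with 51.9, 58.9 and 41.2 CPM in high-mt and 89.2, 87.6 and 75.1 CPM in low-mt sums (log2 -0.74 ± 0.10). Tfam, which packages mitochondrial DNA, also fell (log2 -0.40 ± 0.10). Import and proteostasis genes split as well, with 2 of 28 higher and 11 lower: the protease gene Yme1l1 rose (log2 1.20 ± 0.10) and Tomm7, a small subunit of the outer membrane pore, fell (log2 -1.06 ± 0.16). Among 21 genes of mitochondrial dynamics and mitophagy, 5 rose and 7 fell, with Nrf1, a transcription factor for respiratory chain genes, higher (log2 1.49 ± 0.11) and Gabarapl2, an autophagosome protein, lower (log2 -1.07 ± 0.14).

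The mt- transcripts kept similar proportions to each other, apart from mt-Nd6. The rule used their sum, and within that sum 5 of 13 genes took a larger share in high-mt barcodes in all 3 libraries, 5 a smaller share in all 3, and 3 were mixed. The ATP synthase subunit gene mt-Atp6 took 21.98, 22.02 and 22.6% of mt- UMIs in high-mt barcodes of the Lpar6 knockout, Cab39l knockout and wild type, against 19.8, 20.1 and 21.0% in low-mt barcodes. The complex IV gene mt-Co3 took 17.9, 18.8 and 18.6% in high-mt and 15.7, 16.6 and 17.5% in low-mt barcodes. Another complex IV gene, mt-Co1, went the other way, with 18.1, 16.3 and 15.8% in high-mt and 20.5, 18.6 and 17.0% in low-mt barcodes. The complex I gene mt-Nd1 took 3.90, 4.08 and 3.62% in high-mt and 4.96, 4.91 and 4.22% in low-mt barcodes, and mt-Cytb of complex III took 9.89, 11.3 and 10.5% in high-mt and 11.2, 12.3 and 11.7% in low-mt barcodes. For 12 of the 13 genes the log2 of the share in high-mt over low-mt barcodes lay between -0.35 and 0.22 in each library. The other was mt-Nd6, a complex I gene on the strand opposite to the rest, which took 0.0605, 0.0445 and 0.0553% in high-mt and 0.0377, 0.0296 and 0.0527% in low-mt barcodes (log2 0.68, 0.59 and 0.067). These shares have 1 value per library and class and were not tested.

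The label was checked on urothelial markers that the rule did not use. Krt7, Krt8, Krt18 and Krt19, keratins of simple and intermediate layers, were abundant in high-mt sums: Krt7 had 2371, 2808 and 2291 CPM in high-mt and 2224, 2666 and 2585 CPM in low-mt sums. Krt18 had 2726, 2826 and 1704 CPM in high-mt and 3134, 3149 and 2988 CPM in low-mt sums, lower in each library. Gata3, a luminal transcription factor, had 561, 565 and 911 CPM in high-mt and 398, 387 and 497 CPM in low-mt sums. Other markers differed between libraries. Krt20, a keratin of umbrella cells, had 62.8, 26.2 and 66.5 CPM in high-mt and 45.7, 34.7 and 55.2 CPM in low-mt sums, so it was lower in the Cab39l knockout only. Psca, a surface antigen of urothelium, had 1854, 1319 and 468 CPM in high-mt and 1651, 1381 and 1080 CPM in low-mt sums, with the widest gap in wild type. Of the uroplakins in the rule, Upk2 had 938, 979 and 1014 CPM in high-mt and 558, 585 and 733 CPM in low-mt sums, and Upk3a had 8503, 6301 and 3381 CPM in high-mt and 6469, 5761 and 5280 CPM in low-mt sums. Since at least 0.2% of uroplakin UMIs was required on both sides, this is no independent support. Upk3b, outside the rule, had 298, 264 and 247 CPM in high-mt and 183, 172 and 172 CPM in low-mt sums, but was called on the total scale only (log2 0.61 ± 0.13 against -0.17 with TMM).

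Of the list of basal genes, 10 of 15 measured rose and 0 fell (median 0.59 above the median gene), while of 24 luminal genes 1 rose and 0 fell (0.34 below). Over all genes 33.1% rose and 10.5% fell. With TMM alone, 2 basal and 12 luminal genes were lower. The defining basal keratins were not among the members that rose. Krt5 had 174, 319 and 235 CPM in high-mt and 200, 344 and 346 CPM in low-mt sums (log2 -0.29 ± 0.14, adjusted p = 0.0880), and Krt15 had 233, 1306 and 690 CPM in high-mt and 231, 1196 and 1351 CPM in low-mt sums (log2 -0.28 ± 0.24, adjusted p = 0.306). The members that rose include a transcription factor and several adhesion proteins. The basal transcription factor Trp63 had 292, 241 and 390 CPM in high-mt and 99.7, 102 and 145 CPM in low-mt sums (log2 1.41 ± 0.13), and Dst, a hemidesmosome linker, had 245, 188 and 480 CPM in high-mt and 58.6, 55.7 and 131 CPM in low-mt sums (log2 1.90 ± 0.13). Against genes of the same transcript length the basal list stood at 0.21 and the luminal list at -0.24. Grhl2, an epithelial transcription factor, was the luminal member that rose (log2 1.51 ± 0.10).

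Junction and adhesion genes stood near the median gene (0.04 above it), with 10 of 25 higher and 0 lower, against 33.1 and 10.5% of all genes. With TMM alone, 2 were lower. Cgn, the cytoplasmic plaque protein cingulin of tight junctions, had 154, 132 and 234 CPM in high-mt and 40.9, 41.1 and 66.7 CPM in low-mt sums (log2 1.80 ± 0.11, adjusted p = 3.14e-07). The actin cytoskeleton list divided into 5 of 28 higher and 11 lower. The small actin-binding genes Tmsb4x, with 5692, 6747 and 4566 CPM in high-mt and 11712, 12128 and 12419 CPM in low-mt sums, and Pfn1 fell (log2 -1.11 ± 0.36 and -1.16 ± 0.15). The call of Tmsb4x was lost without the Lpar6 knockout library and without the Cab39l knockout library.

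Over the 3 libraries together, the stress and death lists named next all had medians under the median gene, while single members went both ways. In wild type alone, immediate early genes (0.041) and p53 targets (0.018) stood just above it. Over all genes 33.1% rose and 10.5% fell. Apoptosis genes and p53 targets had medians 0.37 and 0.28 below the median gene, but stood at -0.08 and -0.03 against genes of the same transcript length. Of 29 apoptosis genes, 8 rose and 4 fell, and of 19 p53 targets, 6 rose and 2 fell, among them Mdm2 up (59.6, 62.3 and 96.9 CPM in high-mt and 24.2, 26.0 and 35.3 CPM in low-mt sums, log2 1.34 ± 0.10) and the cell cycle inhibitor Cdkn1a down (56.0, 55.7 and 84.9 CPM in high-mt and 90.6, 73.6 and 108 CPM in low-mt sums, log2 -0.47 ± 0.11). Among 18 genes of the integrated stress response 3 rose and 0 fell, among 21 immediate early genes 2 rose and 0 fell, among 18 heat shock genes 2 rose and 3 fell, and among 13 pyroptosis and necroptosis genes 1 rose and 2 fell. Their medians were 0.39, 0.45, 0.72 and 0.52 below the median gene. Against genes of the same transcript length they stood at -0.10, -0.18, -0.64 and -0.08. With TMM alone, 9, 10, 15 and 5 genes of these lists were lower, in the same order. Junb, the most abundant immediate early gene, had 391, 332 and 495 CPM in high-mt and 304, 313 and 415 CPM in low-mt sums and did not pass (log2 0.24 ± 0.14, adjusted p = 0.159). Fosb was called higher (log2 1.68 ± 0.18), but stood at -0.27 against low-mt barcodes of matching depth. The chaperone gene Hspe1 fell (log2 -1.05 ± 0.14) and Hsf1, the heat shock transcription factor, rose (log2 1.51 ± 0.10).

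Among metabolic and defence lists, falls outnumbered rises for NRF2 targets, xenobiotic enzymes, glycolysis and the proteasome. Rises outnumbered falls for MHC class I presentation and the interferon response, as they did over all genes. Their list medians were 0.14 and 0.68 below the median gene, but stood at 0.35 and 0.079 against genes of the same transcript length. With TMM alone, 7 were higher and 7 lower for MHC class I, and 4 and 7 for interferon. The background over all genes was 33.1% up and 10.5% down. Of 24 NRF2 targets 1 rose and 11 fell, of 20 xenobiotic and aldehyde enzymes 2 rose and 8 fell, of 17 glycolysis genes 0 rose and 6 fell, of 28 genes of the citric acid cycle and fatty acid oxidation 1 rose and 3 fell, and of 31 proteasome subunits 0 rose and 17 fell. Gapdh had 349, 345 and 222 CPM in high-mt and 669, 660 and 585 CPM in low-mt sums (log2 -1.09 ± 0.17). Abcc1, a membrane exporter of glutathione conjugates, rose, with 44.6, 30.4 and 46.3 CPM in high-mt and 10.8, 9.40 and 15.2 CPM in low-mt sums (log2 1.78 ± 0.11). Gstm1, among the most abundant urothelial transcripts, had 19458, 23344 and 19920 CPM in high-mt and 25490, 27426 and 24651 CPM in low-mt sums, a difference within its error (log2 -0.31 ± 0.45, adjusted p = 0.549). Of 17 genes of MHC class I presentation 7 rose and 4 fell, with the regulator Nlrc5 higher (log2 2.44 ± 0.12) and the proteasome activator subunit Psme2 lower (log2 -1.002 ± 0.15). Of 17 interferon response genes 4 rose and 2 fell, of 19 chaperone and unfolded protein genes of the endoplasmic reticulum 4 rose and 0 fell, and of 17 replication and mitosis genes 2 rose and 0 fell. With TMM alone, 6 of the chaperone and 3 of the replication genes were lower.

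**Figure D4:**
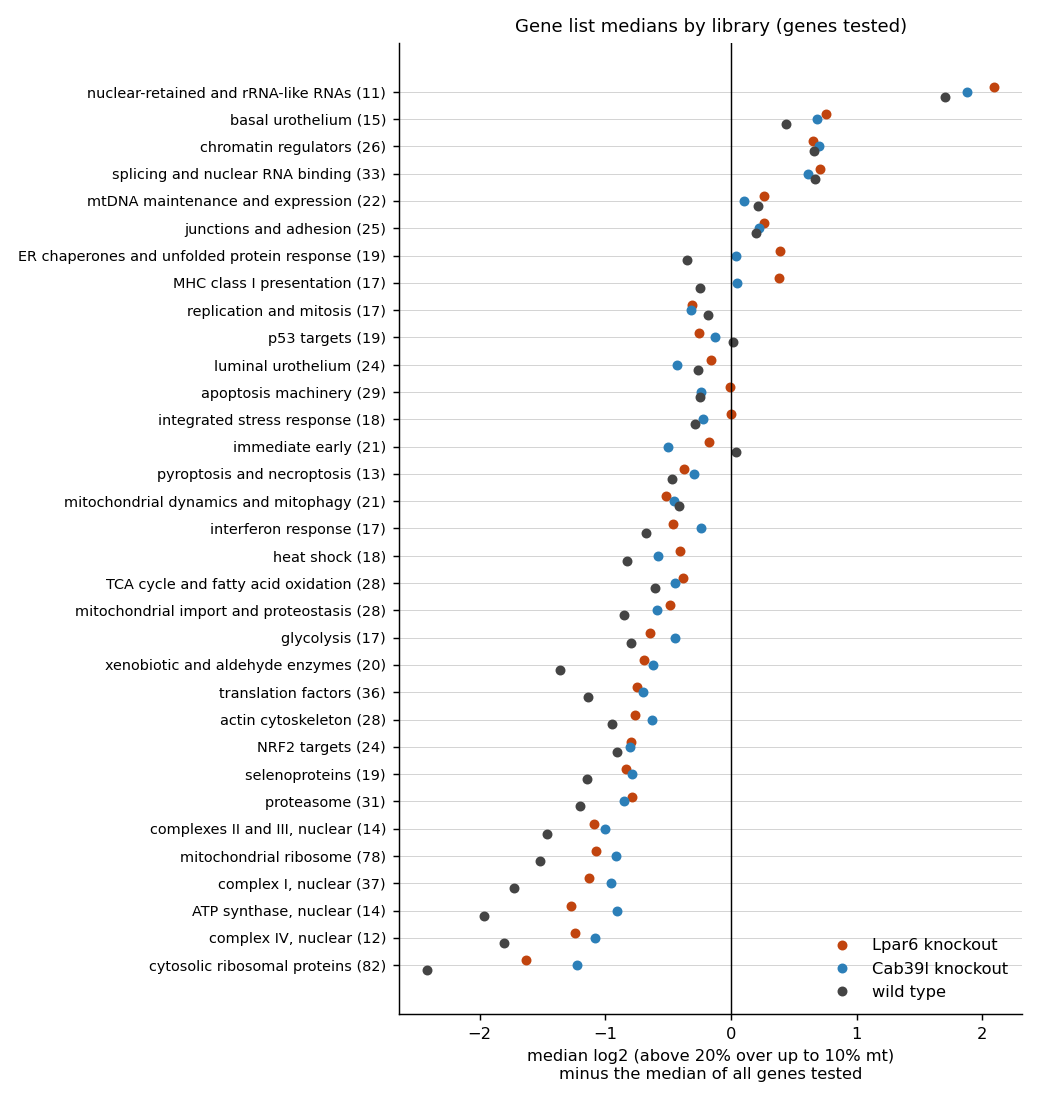
Median log2 of each gene list (high-mt over low-mt sums) minus the median of all genes tested (x axis), 1 point per library, with the number of genes tested in brackets. Nuclear-retained RNAs lie furthest to the right (1.74 over the 3 libraries together) and cytosolic ribosomal proteins furthest to the left (-1.93).

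Genes were also ranked without regard to the lists. Among genes of at least 20 CPM with one direction in all 3 libraries, and leaving out ribosomal protein, haemoglobin and predicted genes and pseudogenes, those with the largest rise were Meg3, Lars2, Tsix, Rgs11, Neat1, Tnni2, Tle2, Ttc6, Ints6l and Naip5. Rgs11, which speeds up G protein inactivation, had 86.3, 85.8 and 116 CPM in high-mt and 12.3, 12.4 and 16.8 CPM in low-mt sums (log2 2.80 ± 0.09, adjusted p = 1.91e-07). The largest falls were of Ost4, Lmo1, Btf3, Rtraf, Ppia, Ybx1, Sdhaf4, Gng5, Tpt1 and Gabarap, with log2 from -1.41 to -1.25. Ost4, the smallest subunit of oligosaccharyltransferase, had 132, 131 and 71.7 CPM in high-mt and 341, 332 and 208 CPM in low-mt sums (log2 -1.41 ± 0.13, adjusted p = 2.86e-06). Ppia, the cytosolic foldase cyclophilin A, had 1383, 1385 and 932 CPM in high-mt and 3114, 3261 and 2793 CPM in low-mt sums (log2 -1.33 ± 0.24). For Ost4 and Ppia all 3 high-mt values lay below all 3 low-mt values.

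Transcript length went with the change across the whole table. Over 12288 protein-coding genes with a GENCODE vM21 transcript, Spearman's rho between log2 and the length of the longest basic transcript was 0.57, and 0.61 with coding length, while GC content gave -0.00. It was 0.56, 0.56 and 0.61 within the Lpar6 knockout, Cab39l knockout and wild type, and 0.48 against low-mt barcodes of matching depth. These are correlations across genes of the same 6 sums, and genes are not independent replicates. Of 711 genes with transcripts up to 1 kb, 10.1% were called higher and 57.4% lower on the total scale, against 92.8 and 0.949% of 2529 genes with transcripts over 5 kb. With TMM the same shares were 4.08 and 79.9% up to 1 kb, and 64.4 and 5.85% over 5 kb.

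Within each length class, genes whose coding sequence holds a hydrophobic segment stood higher than those without. A segment was counted where a window of 19 codons reached a mean Kyte-Doolittle hydropathy of at least 1.6, a usual mark of signal peptides and membrane spans, whose mRNAs are translated at the endoplasmic reticulum. For transcripts up to 1 kb the median log2 was -0.29 with a segment (173 genes) and -0.65 without (538 genes), for 1 to 2 kb it was 0.33 and -0.04, for 2 to 3 kb 0.82 and 0.56, for 3 to 5 kb 1.12 and 0.92, and over 5 kb 1.40 and 1.24. The quartiles of the classes overlapped, and the difference between classes is given as a description. Against low-mt barcodes of matching depth the medians were -0.45 and -0.53 up to 1 kb, and 0.87 and 0.67 over 5 kb.

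**Figure D5:**
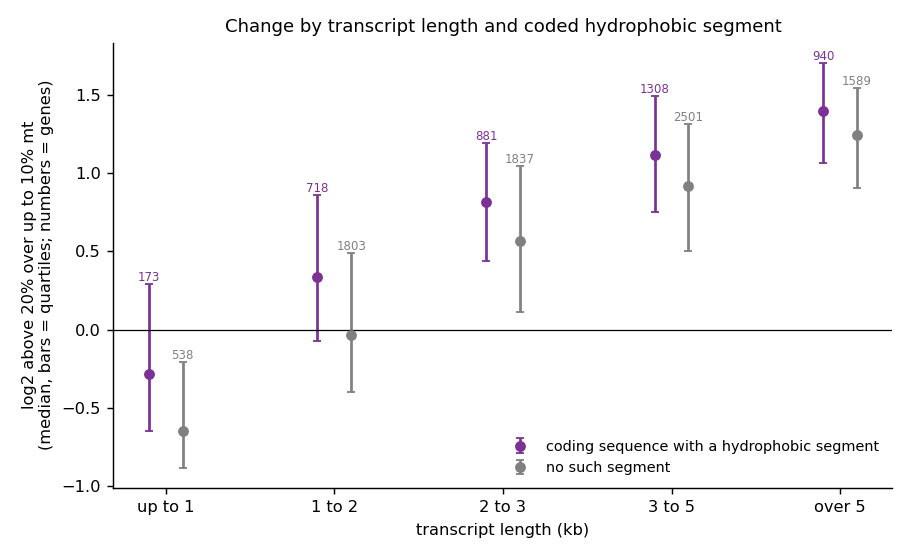
Log2 of high-mt over low-mt sums (y axis; points are medians, bars are quartiles, numbers are genes) by transcript length in kb (x axis), for genes with and without a hydrophobic segment in the coding sequence. Medians go from -0.29 and -0.65 up to 1 kb to 1.40 and 1.24 over 5 kb.

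The selenoprotein list holds genes of both directions, with 2 of 19 higher and 9 lower, against 33.1 and 10.5% of all genes. Its median was 1.09 below the median gene, and stood at -0.53 against genes of the same transcript length. Selenoi and Selenow differ in transcript length as well as in the segment, so they cannot tell these apart. Selenoi, an ethanolamine phosphotransferase in the endoplasmic reticulum membrane (chr5:30232581-30272427, plus strand, transcript of 6803 bases), had 138, 91.0 and 162 CPM in high-mt and 36.2, 30.0 and 41.7 CPM in low-mt sums (log2 1.83 ± 0.11). Selenow, a small cytosolic selenoprotein (chr7:15917208-15922402, minus strand, 736 bases), had 187, 256 and 129 CPM in high-mt and 430, 430 and 378 CPM in low-mt sums (log2 -1.17 ± 0.17). The most hydrophobic coding window of these genes is printed beside that of Abcc1 (chr16:14361558-14475737, plus strand, 6792 bases) and Rpl10 (chrX:74270812-74273135, plus strand, 855 bases), since they are named examples of each direction. Coordinates are of mm10, and sequences are from the GENCODE vM21 transcripts, 5′ to 3′, with the 57 bases of the window in capitals and its flanks in lower case. The mean hydropathy of the window is 2.78 for Selenoi (residues 151 to 169), 2.96 for Abcc1 (1098 to 1116), 0.589 for Selenow (36 to 54) and 0.579 for Rpl10 (124 to 142), so the first pair passes the limit of 1.6.
Selenoi: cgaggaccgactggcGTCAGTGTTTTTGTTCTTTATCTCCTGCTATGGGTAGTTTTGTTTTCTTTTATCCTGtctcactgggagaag
Abcc1: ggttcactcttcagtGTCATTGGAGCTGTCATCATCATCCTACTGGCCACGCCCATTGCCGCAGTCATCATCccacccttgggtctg
Selenow: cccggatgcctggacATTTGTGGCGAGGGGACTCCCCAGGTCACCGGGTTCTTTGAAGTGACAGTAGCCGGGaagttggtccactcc
Rpl10: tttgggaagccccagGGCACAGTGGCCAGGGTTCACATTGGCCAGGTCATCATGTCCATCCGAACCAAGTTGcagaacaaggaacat

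Depth bears on all of this, because high-mt barcodes hold fewer non-mt UMIs. When the low-mt side was limited to barcodes between the lower and upper quartile of non-mt UMIs of the high-mt barcodes of the same library, a comparison added after the data were seen, only 329, 395 and 65 low-mt barcodes were left. Then 2181 of 10779 genes tested were higher (20.2%) and 705 lower (6.54%). Ribosomal proteins stood 1.30 below and nuclear-retained RNAs 0.89 above the median gene. Complex I stood 0.85 below it. Of 98 genes named by the rules for this comparison, 55 kept direction and call, 34 lost the call and 9 changed sign. Malat1 kept its direction (log2 1.29) but lost its call there, as did Uqcrh. With each barcode thinned to 1100 non-mt UMIs instead, 6038 of 9969 genes were higher (60.6%) and 1228 lower (12.3%). Ribosomal proteins then stood 1.77 below and nuclear-retained RNAs 1.46 above the median gene. Of 98 named genes, 94 kept direction and call with thinning.

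Markers of stromal cells were low in high-mt sums. Those of endothelium and smooth muscle were nonetheless higher than in low-mt sums in all 3 libraries, as were those of red blood cells. Markers of prostate and seminal vesicle were higher in the Lpar6 knockout and wild type. Of 5 smooth muscle markers 3, 2 and 3 were at 0 in the high-mt sums of the Lpar6 knockout, Cab39l knockout and wild type. Of 5 endothelial markers 3, 3 and 2 were at 0. The smooth muscle markers summed to 1.28, 1.30 and 0.771 CPM in high-mt and 0.264, 0.605 and 0.436 CPM in low-mt sums. These rest on 6, 8 and 9 UMIs in the high-mt sums. The endothelial markers summed to 4.70, 3.91 and 3.26 CPM in high-mt and 1.42, 1.48 and 1.92 CPM in low-mt sums. Summed, the 6 fibroblast markers had 16.4, 1.46 and 6.17 CPM in high-mt and 9.52, 1.73 and 4.58 CPM in low-mt sums, and the 6 T and NK cell markers had 4.06, 1.46 and 31.5 CPM in high-mt and 4.06, 4.98 and 33.4 CPM in low-mt sums. The 6 B cell markers had 30.5, 72.3 and 48.3 CPM in high-mt and 33.6, 24.9 and 264 CPM in low-mt sums. The 7 macrophage and dendritic markers had 6.83, 20.2 and 56.2 CPM in high-mt and 10.2, 14.4 and 33.5 CPM in low-mt sums, and the 3 MHC class II markers had 29.3, 65.6 and 57.5 CPM in high-mt and 14.97, 26.5 and 63.1 CPM in low-mt sums. These immune sums were not higher in high-mt sums of every library. The 6 markers of prostate and seminal vesicle, led by Spink1, had 349, 433 and 73.5 CPM in high-mt and 40.8, 452 and 58.01 CPM in low-mt sums, and the 5 epididymis markers had 5.34, 23.6 and 2.83 CPM in high-mt and 0.668, 26.04 and 4.91 CPM in low-mt sums. Erythroid markers, 5 in number and none at 0, had 272, 202 and 1576 CPM in high-mt and 216, 115 and 436 CPM in low-mt sums. Hbb-bs, the leading one, was found in 12.8, 12.8 and 66.9% of high-mt and 17.0, 13.7 and 65.1% of low-mt barcodes, and 10 barcodes held 80.4, 74.1 and 59.5% of its UMIs in the high-mt class. One fit left out barcodes with over 0.1% of non-mt UMIs in B, T and NK, macrophage and dendritic, neutrophil and MHC class II markers. It gave 8788 genes higher and 1417 lower, and all 99 named genes kept direction and call. The erythroid markers and the other lists outside that filter were not left out, and their part in the result was not tested.

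Between genotypes, ribosomal protein and respiratory chain mRNA took a larger share in the high-mt barcodes of both knockouts than in those of wild type. There is no test with 1 library per group, and a difference is counted where it is at least 2-fold on the log2(CPM + 1) scale, for genes with at least 20 CPM in the higher library and 50 UMIs over both. In high-mt sums, 219 of 7437 genes were higher (2.94%) and 330 lower (4.44%) in the Lpar6 knockout than in wild type, and 241 of 7428 were higher (3.24%) and 697 lower (9.38%) in the Cab39l knockout. In low-mt sums these were 5 (0.0915%) and 67 (1.23%) of 5465 genes for the Lpar6 knockout and 9 (0.164%) and 118 (2.15%) of 5481 for the Cab39l knockout. Scaled with TMM instead, the high-mt counts were 489 higher and 39 lower for Lpar6 and 596 and 59 for Cab39l, so the direction of the split depends on the scaling.

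The 82 ribosomal protein genes had a median log2 over wild type of 0.94 (Lpar6 knockout) and 1.39 (Cab39l knockout) within high-mt sums, against 0.25 in each knockout within low-mt sums. At least 2-fold higher than in wild type were 38 of them for the Lpar6 knockout and 63 for the Cab39l knockout, against 0 and 1 in low-mt sums. All genes eligible had medians of -0.33 and -0.43 in high-mt sums. Complex I subunits stood at 0.75 and 0.77 in high-mt sums, with 12 and 14 of 37 at least 2-fold higher, and at 0.15 and 0.16 in low-mt sums. Immediate early genes stood at -1.08 and -1.49 in high-mt sums and at -0.77 in each knockout in low-mt sums. Both knockouts were set against the same wild type library, so the values are not independent of each other. Length went with these differences too: Spearman's rho between log2 over wild type and transcript length was -0.61 (Lpar6) and -0.67 (Cab39l) in high-mt sums, and -0.69 and -0.73 in low-mt sums, across 5406 to 7338 genes.

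Several of the genes furthest apart between genotypes in high-mt sums were markers of other cells or came from few barcodes. S100a9 and S100a8, calprotectin genes of neutrophils, had 0.854, 0.163 and 78.1 CPM and 0.427, 0.325 and 45.9 CPM in the Lpar6 knockout, Cab39l knockout and wild type, and in wild type 10 high-mt barcodes held 83.0 and 86.9% of their UMIs. The neutrophil markers summed to 2.35, 0.976 and 141 CPM in high-mt and 0.519, 0.233 and 161 CPM in low-mt sums. Their part in the result was not tested. Spink1, a trypsin inhibitor secreted by accessory glands, had 306, 214 and 28.02 CPM. In the Lpar6 knockout 98.3% of its UMIs were in 10 of 1369 high-mt barcodes, whereas in the Cab39l knockout 50.6% of high-mt barcodes held a UMI of it. Svs2 and Svs5, secreted proteins of the seminal vesicle, and Pate4 were highest in the Cab39l knockout. Svs2 had 58.1 CPM there (1.49 in the Lpar6 knockout, 1.37 in wild type), and Pate4 had 30.8 CPM (0.854 in the Lpar6 knockout, 0.0857 in wild type). Svs5 had 93.3 CPM (0.854 in the Lpar6 knockout, 7.88 in wild type) and was found in 26.8% of high-mt and 24.0% of low-mt barcodes.

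Zfp990, a zinc finger gene, differed between libraries on both sides of the mitochondrial limit. It had 29.9 CPM in the high-mt sum of the Lpar6 knockout (140 UMIs in 116 of 1369 barcodes), 0 UMIs in 1644 barcodes of the Cab39l knockout, which allows up to 0.488 CPM, and 0.343 CPM (4 UMIs) in wild type. The low-mt sums had 7.99, 0.0947 and 0.119 CPM. Ccl5, a chemokine of T and NK cells, had 0.976 CPM in the Cab39l knockout and 25.7 CPM in wild type, where 77 of 2131 high-mt barcodes held it.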

How the data were processed

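UMI counts per gene and cell barcode were deposited by the authors as raw matrices, 1 per pooled library. Reads had been processed with Cell Ranger 3.0.2 on mm10, per the submitters' processing notes, and the annotation release was not given in the sources used here. Barcodes, gene lists and the high-mt limit were chosen with earlier results of these data known. Counts were summed per library and mt class, without mt- genes, and tested with edgeR 4.0.16 (quasi-likelihood, low-count filter, library as block, total-count scaling, Benjamini-Hochberg adjustment), with the 4 uroplakins left untested. The block pairs the sums because both come from the same pooled suspension. DESeq2 1.42.0 and limma 3.58.1 on log2(CPM + 1) were alternatives. The test was also run on simulated counts in which few genes were changed, up and down in near equal number. Those counts held no shift of the median gene, so that run cannot check how the scaling acts here. Scrublet in scanpy 1.11.5 marked 1 of 22078 barcodes, so it had not worked and doublets were kept, with the top 6% of scores left out as an alternative. Transcripts were matched by gene identifier to GENCODE vM21 (30934 of 31053, 99.6%), and the longest basic protein-coding transcript of a gene was used.

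Named genes were the 10 largest rises and falls of at least 20 CPM, the most abundant, most raised and most lowered member of each list, the targeted genes and the 3 furthest apart each way between genotypes. A few further list members were chosen as examples after their values were seen. Some named genes are not reported here. Intervals are exact and cover counting error only. No reads were used.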

Additional observations from a re-analysis of the deposited data

Results flagged for a closer look

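In some gene lists, high-mt barcodes stood on opposite sides of the median gene in different libraries, although the difference between libraries was not tested. Immediate early genes stood at -0.17, -0.50 and 0.041 in the Lpar6 knockout, Cab39l knockout and wild type, and p53 targets at -0.25, -0.13 and 0.018. The 2 lists flagged are given next. For chaperone and unfolded protein genes of the endoplasmic reticulum, the list median relative to the median gene was 0.39 in the Lpar6 knockout, 0.039 in the Cab39l knockout and -0.35 in wild type. Hspa5, the chaperone BiP, had 400, 270 and 255 CPM in high-mt and 144, 146 and 179 CPM in low-mt sums of the Lpar6 knockout, Cab39l knockout and wild type. For MHC class I presentation the medians were 0.38, 0.048 and -0.25, and H2-K1 had 1991, 1280 and 1139 CPM in high-mt and 985, 844 and 835 CPM in low-mt sums.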

How the results depend on the processing

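How many genes were called depended on the scaling and on the comparison barcodes. Against 8802 higher and 1408 lower, TMM factors gave 4416 and 4149, RLE factors 4147 and 4334, and DESeq2 3632 and 3986. Low-mt barcodes of matching depth, an alternative chosen after the data were seen, gave 2181 and 705 of 10779 genes tested. Without the library block, which pairs the 2 sums of a library, 7159 were higher and 724 lower. Leaving out 1 library at a time gave 8364 to 8661 higher and 1210 to 1366 lower. The cause of these changes was not tested.

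Relative to the median gene, nuclear-retained RNAs (1.74) stood at 1.58 to 2.04 when 1 library was left out, at 0.99 against barcodes of 10 to 20% mt- UMIs, at 1.46 with thinned barcodes, at 1.46 for high-mt barcodes of 20 to 30% (also chosen after the data were seen), at 0.89 at matching depth and at 1.54 with equal weights in limma. Against 10 to 20% mt- UMIs and at matching depth, complex I stood at -1.001 and -0.85, and ribosomal proteins at -1.23 and -1.30. The pyroptosis list changed sign with thinned barcodes (0.17), and the junction list did so without the Lpar6 knockout (-0.0086), without the Cab39l knockout (-0.030, against 0.056 without wild type) and at a 30% limit (-0.036).

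With TMM, RLE and DESeq2 in turn, the sign changed for Ndufs1 (-0.042, -0.081, -0.081), Sdha (-0.15, -0.19, -0.19), Mrpl37 (-0.19, -0.23, -0.23), Junb (-0.54, -0.58, -0.58), Mcl1 (-0.23, -0.27, -0.26), Psmd3 (-0.31, -0.35, -0.35), Ctnnb1 (-0.057, -0.094, -0.094), H2-K1 (-0.092, -0.13, -0.13) and Tyms (-0.67, -0.71, -0.70), and with RLE and DESeq2 for Hsp90b1 (-0.024, -0.024). At matching depth it changed for Meg3 (-0.61), Fosb (-0.27), Gstm1 (0.034), Perp (0.47), Mcl1 (-0.51), Ldhb (0.011), Acadl (0.51), Krt15 (0.11) and Krt18 (0.10). For high-mt barcodes of 20 to 30% it changed for Perp (0.19), Acadl (0.092) and Tyms (-0.013). When 1 library was left out, the sign changed for Perp (-0.15 to 0.098) and Krt15 (-0.48 to 0.071) without wild type and for Acadl (-0.25 to 0.030) without the Cab39l knockout. Perp changed at a uroplakin minimum of 0.5% (0.045), Cebpb against 10 to 20% mt- UMIs (0.0079) and Gsdmc3 against barcodes up to 5% (-0.31).

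The share of high-mt barcodes in the Lpar6 knockout, Cab39l knockout and wild type was 22.7, 24.96 and 45.3% at a limit of 15%, 16.1, 17.3 and 29.2% at 25%, and 12.9, 14.7 and 22.7% at 30%. It was 22.5, 23.9 and 32.2% at 200 genes, and at 1000 genes 15.6 and 15.9% in the knockouts. At a uroplakin minimum of 0.5% it was 30.0% in wild type. With TMM factors, 489 genes were at least 2-fold higher and 39 lower for Lpar6, and 596 and 59 for Cab39l.

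With 3 pairs of sums and 1 library per genotype, spread between mice cannot be measured. Low genes are limited by the 4682346 UMIs of the smallest high-mt sum, where 0 UMIs allows up to 0.641 CPM.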
